A study of Homo sapiens with 30 samples.

Results

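The vehicle-treated cells of MDA-MB-231, a triple-negative breast cancer cell line of spindle-shaped cells, were compared with those of the other 4 lines of the series. The members are the 6 MDA-MB-231 arrays among 30 two-colour Agilent whole genome arrays. They were chosen by cell line and not by a measured value, but with earlier results of these data known, as were the gene lists below. On every array the Cy3 channel held RNA of cells given vehicle and the Cy5 channel RNA of cells of the same line given recombinant BMP7, and all levels below come from the Cy3 channel. The other 24 arrays held 6 each of HCC1954, MDA-MB-361, T-47D and ZR-75-30. Each line was sampled at 30 min and at 1, 3, 6, 12 and 24 h after vehicle, with the cells of 3 cultures pooled for each array, so that every line was measured once at each time. The 6 arrays of a line are therefore time points of vehicle treatment and not repeats of 1 condition, and the p-values below measure the spread between them.

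Some limits of the groups as a model bear on every comparison. MDA-MB-231 is 1 line, so a difference from the 4 others belongs to this line and not to a class of tumours. With lines as the units, an exact one-sided permutation test of 1 line against 4 cannot go below p = 0.20. MDA-MB-231 and T-47D were grown with less serum than is recommended for them and the other 3 lines were not, so line and medium cannot be told apart where both lines stand together, and in MDA-MB-231 they cannot be told apart at all. HCC1954 is known as an estrogen receptor negative line with amplified ERBB2, MDA-MB-361 and ZR-75-30 as estrogen receptor positive lines with amplified ERBB2, and T-47D as an estrogen receptor positive luminal line.

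Epithelial cells hold together through E-cadherin, tight junctions and polarity complexes, and factors such as GRHL2, OVOL1 and the splicing factor ESRP1 maintain this state. In epithelial-mesenchymal transition, repressors of the ZEB and SNAI families bind E-boxes in epithelial promoters, junction genes are silenced and vimentin, matrix and motility genes are expressed. MDA-MB-231 is the breast line used most often as an example of the mesenchymal state, and luminal lines such as T-47D stand at the other end. BMPs, the ligands this series was made to study, signal through type I and type II receptors to SMAD proteins, whose best known targets are the ID genes and the inhibitors SMAD6 and BAMBI.

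A level is the log2 of the background-corrected vehicle signal less the median of that array, so that 1 unit is 2-fold and 0 is the middle probe of the array. Levels of 1 gene can be compared between arrays, but not levels of different genes, whose probes differ. The lowest signal that counts as well above background lay between -2.81 and -0.86 on the 30 arrays, and lower levels have no order. Of the probes, between 60.1% and 70.5% were well above background on the MDA-MB-231 arrays. The array at 6 h stood apart: it had 2235 spots marked as outliers, where the other 29 arrays had 63 to 235, the lowest of these 6 shares, and a mean correlation of 0.928 with the other MDA-MB-231 arrays, which had 0.965 to 0.972. It was scanned with the 30 min array in the smaller of 2 scan batches, on a slide shared with ZR-75-30. Without it, 3695 genes were called higher and 3320 lower than the mean of the other lines, against 4172 and 3262 with it.

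Over 12689 genes well above background on all 30 arrays, MDA-MB-231 arrays correlated with each other at a mean r of 0.962. Their mean r was 0.878 with HCC1954, 0.842 with ZR-75-30, 0.835 with T-47D and 0.812 with MDA-MB-361, where pairs among the other lines had 0.847 to 0.896. These correlations run across genes, which are not independent replicates, and describe the arrays without a test. HCC1954, the only other estrogen receptor negative line, was thus the nearest to MDA-MB-231. HCC1954 itself was nearer to the estrogen receptor positive ZR-75-30, at a mean r of 0.889, than to MDA-MB-231. Within MDA-MB-231, 67.7% of 15254 genes ranged 2-fold or more over the 6 arrays, and 24.7% did so without the 6 h array, against 6.47% in MDA-MB-361 and 48.6% in T-47D.

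Of 22446 genes and named transcripts tested with limma, 18.6% were higher in MDA-MB-231 than the mean of the other 4 lines and 14.5% were lower, at an adjusted p under 0.05 and a difference of 2-fold or more. Against every one of the 4 lines apart, 1408 were higher, which is 6.27%, and 1211 lower, which is 5.4%. Counts of list members below are to be read against these shares of all genes. Against HCC1954 alone 15.8% were higher and 16.2% lower, against MDA-MB-361 26.8% and 19.8%, against T-47D 22.2% and 18.4%, and against ZR-75-30 20.5% and 17.6%. HCC1954 was most often the line that kept a gene out of the set called against all 4: 844 genes were higher than the other 3 lines but not than HCC1954, while MDA-MB-361, T-47D and ZR-75-30 did so for 260, 260 and 271. The median difference of all genes was 0.11, and it was -0.01 with arrays set on their 75th percentile, so that differences near 0.1 carry no direction.

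**Figure D1:**
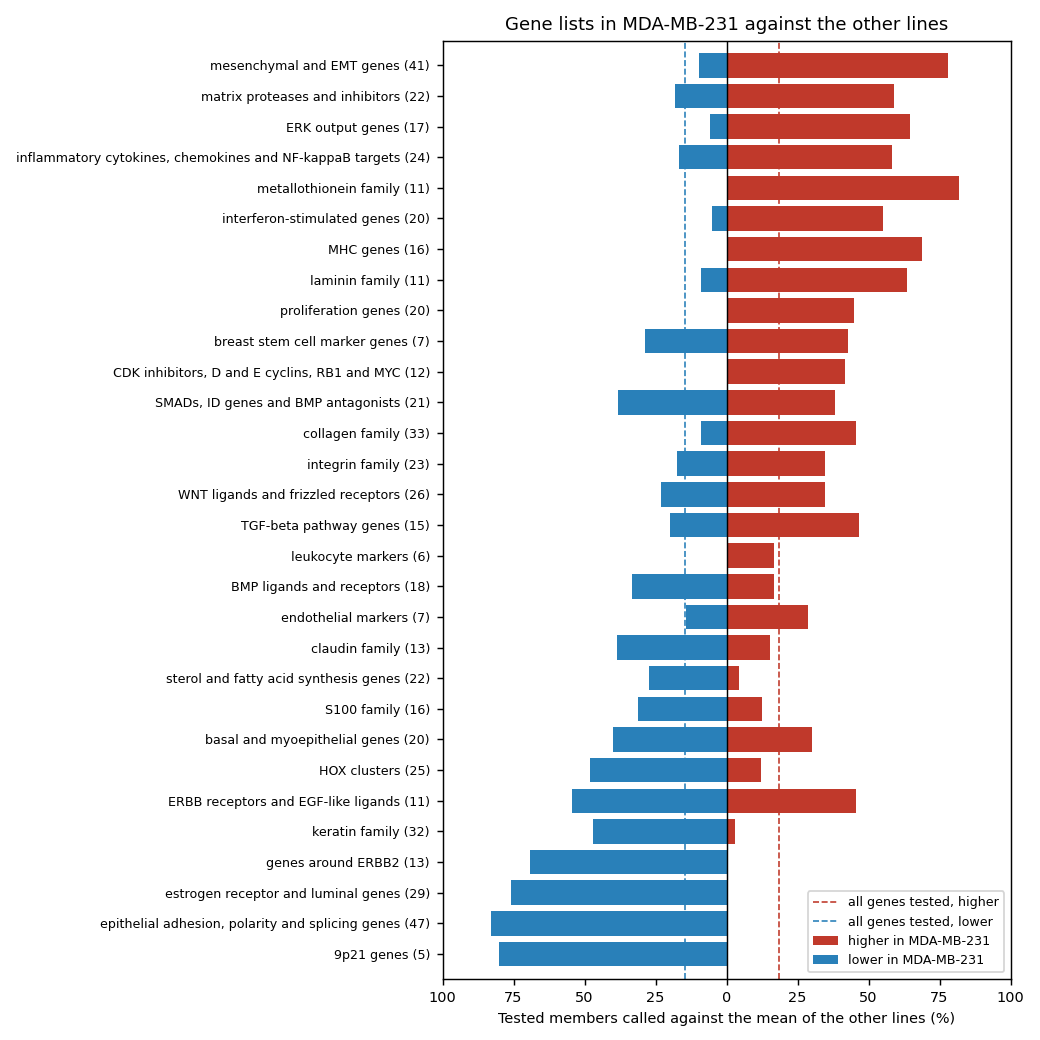
Share of tested members of each gene list (number in parentheses) that were called higher (red, right) or lower (blue, left) in MDA-MB-231 than the mean of the other 4 lines, in percent, with the lists ordered by their median difference. Dashed lines mark all genes tested, at 18.6% higher and 14.5% lower, and the epithelial list reached 83.0% lower and the mesenchymal list 78.0% higher.

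Genes of epithelial adhesion, polarity and splicing were low in MDA-MB-231. Of 47 listed and tested, 39 were lower than the mean of the other lines, 0 were higher, and 35 were lower than every line, with a median difference of -4.02. CDH1 (probe at chr16:67426715-67426774, hg18), which encodes E-cadherin, lay between 0.99 and 2.17 with a median of 1.52 in MDA-MB-231 and between 7.13 and 10.10 in the other lines. The groups did not overlap, and the difference was -7.30 ± 0.18 (SE, n = 6 against 24 arrays, adjusted p = 1.5e-24), or 157-fold. Of all genes tested, 5.48% had every MDA-MB-231 array below the other 24, and 6.47% had every one above. A lower level on these arrays cannot tell fewer expressing cells from less RNA per cell. EPCAM, an epithelial adhesion molecule, stayed well above background on all 6 arrays at 3.68 to 4.28, below the 6.53 to 8.74 of the other lines. GRHL2, a transcription factor that keeps epithelial genes on, was well above background on none of the 6 arrays and on all 24 others, where it lay between 2.87 and 5.01, and was at least 83.7-fold lower.

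Several epithelial genes could be given only as such bounds. LAD1 (chr1:199616946-199617005), which encodes ladinin, a protein of the basement membrane zone, was at least 607-fold lower, its levels in the other lines reaching 8.45 with a median of 7.31. RAB25, a small GTPase of apical recycling, was at least 82.4-fold lower, and OVOL1, a transcription factor of epithelia, at least 113-fold. Both were well above background on all 24 other arrays and on no MDA-MB-231 array. ESRP1, which sets epithelial splice forms, was still measured on 4 of the 6 arrays, at -3.43 to -1.53 against 3.01 to 5.19. The tight junction genes CLDN7 and CLDN3 were lower than every line, and CLDN7 had a median of 1.77 against 6.67 and CLDN3 of 0.18 against 5.88. CLDN3 was also lowest of the others in HCC1954, at 1.91 to 3.13, which did not reach down to the highest MDA-MB-231 array at 0.72. CRB3, of the Crumbs polarity complex, lay between -1.64 and -0.47 in MDA-MB-231 and between 2.40 and 3.95 elsewhere.

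The promoters of these genes are shown because they hold the letters to which ZEB and SNAI factors are known to bind. Each window is 300 bases long and holds the start of a RefSeq transcript (GRCh38.p14), and the motif searched was CACCTG, or CAGGTG on the other strand, which is 1 site and not a pair. Of the 47 epithelial genes 24 have a promoter in the table, and 18 of these held the motif, against 6571 of all 27305 genes (24.1%). With 2 or more copies there were 11 of 24 (45.8%) and 4.2% of all genes. Of the mesenchymal genes, 3 of 28 (10.7%) held it, and of the luminal genes 4 of 19 (21.1%). These shares describe sequence only, with no test, and binding was not measured. The first 4 promoters below are of epithelial genes lower in MDA-MB-231 than in every other line, with the motif in capitals. RAB25 and LAD1 had the lowest differences among epithelial genes with a promoter here. CLDN7 and CRB3 were picked for their 5 copies and are not typical, and VIM was picked by hand for contrast. Other genes went the other way: CGN, CLDN4, EHF, GRHL1, LSR and MARVELD2 held no motif, and the mesenchymal gene ZEB1 held it 3 times. RAB25 (chr1:156060910-156061209, plus strand) and LAD1 (chr1:201399275-201399574, minus strand) hold it 2 times, CLDN7 (chr17:7262429-7262728, minus strand) and CRB3 (chr19:6464021-6464320, plus strand) 5 times, and VIM (chr10:17227991-17228290, plus strand) has none in this window.
RAB25: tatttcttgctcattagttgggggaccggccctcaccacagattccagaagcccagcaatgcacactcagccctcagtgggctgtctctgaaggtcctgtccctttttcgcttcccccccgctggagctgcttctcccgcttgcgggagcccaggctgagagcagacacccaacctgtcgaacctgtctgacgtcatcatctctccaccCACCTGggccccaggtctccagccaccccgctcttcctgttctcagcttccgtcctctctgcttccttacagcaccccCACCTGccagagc
LAD1: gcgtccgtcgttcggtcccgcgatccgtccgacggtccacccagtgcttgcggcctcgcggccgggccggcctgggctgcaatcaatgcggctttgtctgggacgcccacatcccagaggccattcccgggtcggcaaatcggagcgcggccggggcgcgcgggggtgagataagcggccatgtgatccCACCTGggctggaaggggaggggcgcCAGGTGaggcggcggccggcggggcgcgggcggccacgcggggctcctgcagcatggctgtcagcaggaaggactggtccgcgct
CLDN7: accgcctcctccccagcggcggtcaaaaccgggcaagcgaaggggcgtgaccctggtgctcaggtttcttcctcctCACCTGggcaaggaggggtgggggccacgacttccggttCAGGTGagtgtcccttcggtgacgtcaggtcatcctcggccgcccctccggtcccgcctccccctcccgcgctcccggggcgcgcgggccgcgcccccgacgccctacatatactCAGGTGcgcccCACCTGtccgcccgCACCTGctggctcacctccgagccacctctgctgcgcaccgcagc
CRB3: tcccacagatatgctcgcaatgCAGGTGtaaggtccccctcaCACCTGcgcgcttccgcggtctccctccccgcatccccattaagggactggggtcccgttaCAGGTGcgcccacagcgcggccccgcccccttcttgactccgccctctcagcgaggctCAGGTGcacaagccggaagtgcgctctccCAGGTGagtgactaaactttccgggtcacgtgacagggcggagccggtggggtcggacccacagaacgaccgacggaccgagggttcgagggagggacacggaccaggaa
VIM: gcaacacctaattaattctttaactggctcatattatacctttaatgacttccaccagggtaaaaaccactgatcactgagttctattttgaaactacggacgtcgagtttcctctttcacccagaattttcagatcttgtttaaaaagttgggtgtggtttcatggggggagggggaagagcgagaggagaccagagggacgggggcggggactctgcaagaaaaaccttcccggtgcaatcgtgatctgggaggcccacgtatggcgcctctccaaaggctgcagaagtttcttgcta

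Mesenchymal genes showed the opposite direction. Of 44 listed, 41 passed the filter on background, 32 of them were higher than the mean of the other lines and 4 lower, and 22 were higher than every line, with a median difference of 3.70. VIM (chr10:17318353-17319262, hg18), the intermediate filament vimentin, lay between 9.23 and 11.45 with a median of 10.23 in MDA-MB-231. HCC1954 came next at 6.61 to 8.52, and the other 3 lines lay between -3.35 and 1.79. The difference from the mean of the lines was 8.37 ± 0.29 (SE, adjusted p = 2.6e-21), and from HCC1954, the nearest, 2.47. AXL (chr19:46459235-46459294), a receptor tyrosine kinase of invasive cells, lay between 8.72 and 10.06 and at most at 2.51 in any other line, a difference of 9.40 ± 0.30.

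The repressors of the ZEB family were measured almost exclusively in MDA-MB-231. ZEB2 lay between 1.28 and 2.07 on all 6 arrays and was well above background on 1 of the 24 others. ZEB1 was dimmer, between -1.18 and -0.01, well above background on 5 of 6 arrays and on 1 of 24, and the groups overlapped only through that ZR-75-30 array at -1.09. SNAI2, another such repressor, was not particular to the line, since its 4.48 to 5.09 overlapped the 3.46 to 4.59 of HCC1954. TWIST1, a further transcription factor of the transition, was lower than the mean, with a median of -1.28 against 0.69, and was called lower than MDA-MB-361, T-47D and ZR-75-30 but not HCC1954.

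Other mesenchymal genes split by whether HCC1954 shared them. Among those higher than every line were NT5E, the surface enzyme CD73 (at least 6.51, with a median of 6.78, against at most 4.08) and CDH11, a mesenchymal cadherin (5.23 to 6.38 against at most 4.20). Shared with HCC1954 were MSN, the cytoskeletal linker moesin, at 7.84 to 8.11 against 6.95 to 7.69 there and below background in the other 3 lines, and CAV1, caveolin 1, at 8.09 to 10.49 against 7.18 to 8.04, where the difference of 1.23 was 0.90 and no longer called without the 6 h array. CDH2, N-cadherin, was higher than the mean by 2.95 ± 0.21 but within 2-fold of MDA-MB-361, where it lay between -0.76 and -0.10. The 4 lower members of the list were TWIST1, COL1A1 (difference -2.50), ACTA2 (-2.63) and TAGLN (-1.40). SPARC, a matrix protein, differed by 0.02 ± 0.19 with an adjusted p of 0.943. Of the 5 mesenchymal markers by which the line was checked, VIM, ZEB1 and AXL were thus higher than in every line, CDH2 was higher than the mean of the lines, and SPARC was not called.

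**Figure D2:**
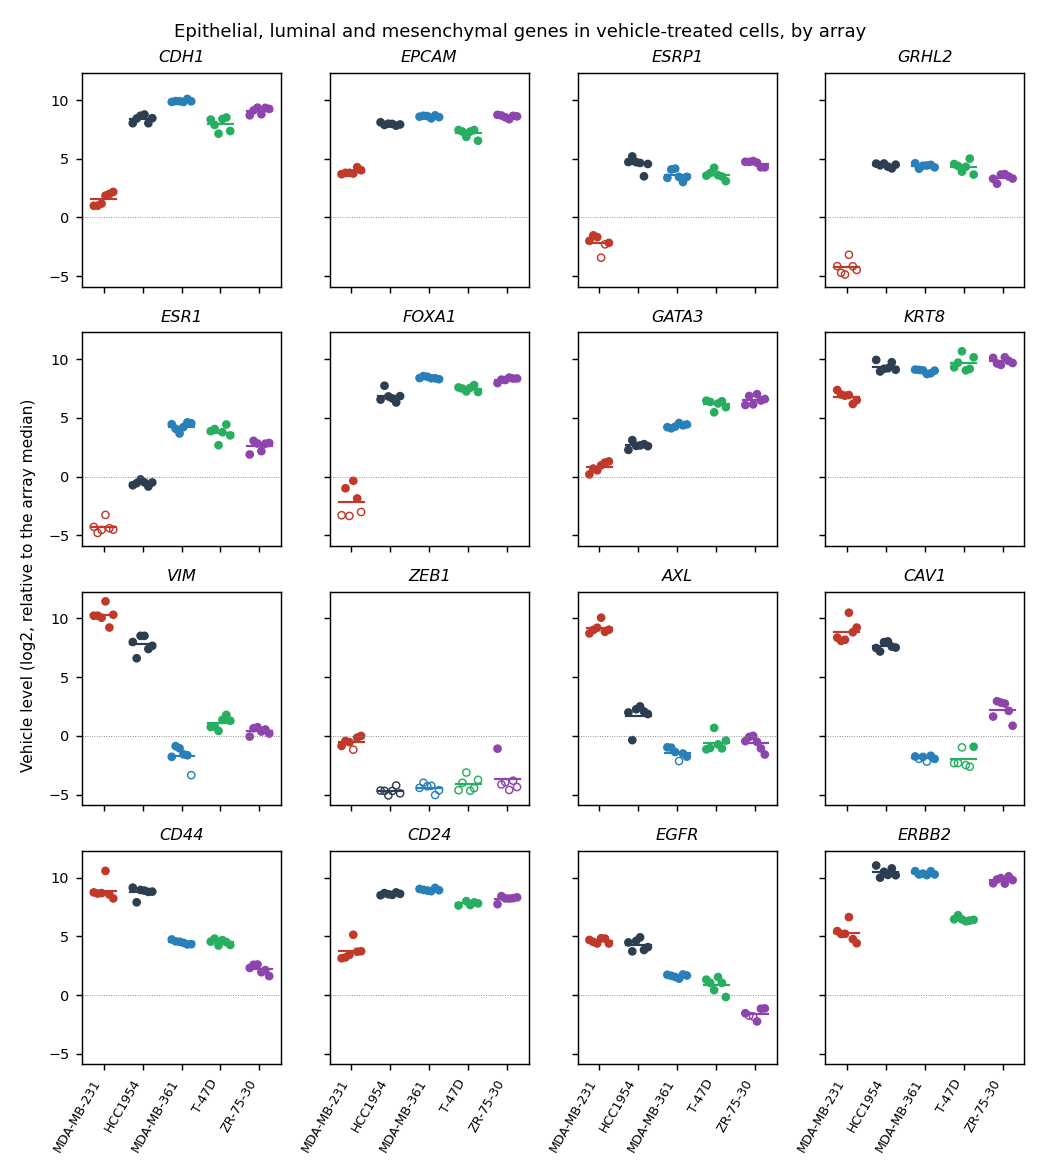
Vehicle level (log2, relative to the array median) of 16 epithelial, luminal and mesenchymal genes on each of the 30 arrays, in order of time within a line. Filled points are well above background, open points are not, and bars are line means. CDH1, EPCAM, GRHL2, FOXA1 and CD24 are lowest in all 6 MDA-MB-231 arrays, VIM and AXL highest, and CD44 and EGFR overlap with HCC1954.

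CD44 and CD24 are the pair of surface genes by which breast cancer stem cells are sorted. CD44 lay between 8.22 and 10.58 in MDA-MB-231 and between 7.90 and 9.15 in HCC1954, against which it was not called, and at most at 4.81 in the other 3 lines. CD24 lay between 3.13 and 5.14 against 7.62 to 9.13, a difference of -4.67 ± 0.17 without overlap. The CD24 probe also matches near-identical copies of the gene, so the source of its signal is uncertain. Of the 7 tested genes in the list of breast stem cell markers, 3 were higher and 2 lower, with a median difference of 0.71.

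Luminal genes were low, and more so against the 3 estrogen receptor positive lines than against HCC1954. Of 29 estrogen receptor and luminal genes tested, 22 were lower than the mean of the lines and 0 higher, and 14 were lower than every line, with a median difference of -3.85. By line, 25 were lower than MDA-MB-361, 22 than T-47D, 25 than ZR-75-30 and 14 than HCC1954. ESR1 (chr6:152465601-152465660, hg18), the estrogen receptor, was well above background on no MDA-MB-231 array and was at least 27.2-fold lower than the mean of the lines. HCC1954 had it between -0.84 and -0.24, and the other 3 lines between 1.88 and 4.62.

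FOXA1, the factor that opens chromatin for the estrogen receptor, was low in MDA-MB-231 alone. Its levels of -3.35 to -0.36, well above background on 3 of 6 arrays, stood against 6.31 to 8.56 with HCC1954 included, a difference of -9.89 ± 0.27 (SE, adjusted p = 1.4e-23). GATA3, a luminal transcription factor, was measured on all 6 arrays at 0.19 to 1.30, below 2.28 to 3.11 in HCC1954 and 4.11 to 7.02 in the other lines. AGR2, an estrogen-responsive secretory protein, had a median of -1.33 against 7.27. PGR, the progesterone receptor, was well above background on no array of MDA-MB-231, HCC1954 or ZR-75-30, and on too few of the other arrays to be called.

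Keratins moved apart from each other. The luminal keratins KRT8 and KRT18 remained bright in MDA-MB-231, with medians of 6.92 and 8.83, and differed from the mean of the other lines by -2.64 and -1.33, KRT18 with overlap. KRT19 was called neither way, with 8.34 to 9.82 in MDA-MB-231 between 3.93 to 5.77 in HCC1954 and 10.35 to 12.36 in the rest (difference -0.40 ± 0.23, adjusted p = 0.141). Of 32 keratins tested, 15 were lower and only KRT34 was higher, at 0.62 to 1.93 against at most -0.17. Of 20 basal markers tested, 6 were higher and 8 lower than the mean of the lines and 6 not called. Against HCC1954 1 was higher and 13 lower, against MDA-MB-361 6 and 6, against T-47D 7 and 5 and against ZR-75-30 6 and 5. KRT5 was measured on 1 of 6 arrays, TP63 lay between -2.54 and -1.71 against 5.74 to 7.02 in HCC1954, and KRT14 differed by -0.47 ± 0.34 from the mean. CDH3, P-cadherin, was lower than every line, with -3.05 to -0.56 against 4.83 to 8.21.

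Receptors and ligands of the ERBB family were divided. EGFR lay between 4.39 and 4.84 in MDA-MB-231 and between 3.72 and 4.91 in HCC1954, and at most at 1.75 in the others. NRG1, neuregulin 1, the ligand of ERBB3 and ERBB4, was higher than every line, with 5.08 to 6.59 in MDA-MB-231 and 2 of 24 other arrays well above background, none above -1.30. ERBB3 itself lay between -3.24 and -0.95, below the 1.37 to 4.44 of the other lines, and ERBB4 was well above background on no array, as in HCC1954. HBEGF and EREG, ligands of EGFR, were higher than the mean by 3.41 and 2.04, and EGF was lower by at least 3.89-fold. ERBB2 lay between 4.41 and 6.64, next to T-47D at 6.28 to 6.80 with which it overlapped, and below the 9.49 to 11.04 of the other 3 lines. Of 13 genes around ERBB2 on its chromosome, 9 were lower than the mean, led by GRB7 and PGAP3, but only 4 were lower than T-47D.

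Near CDKN2A, on the short arm of chromosome 9, many probes gave no signal in MDA-MB-231. CDKN2A encodes the cell cycle inhibitors p16 and p14ARF, CDKN2B encodes p15, and MTAP, an enzyme of methionine salvage, lies beside them. Between the FOCAD and DMRTA1 probes (chr9:20864709-22441937, hg18, edges chosen after the levels were seen), a stretch of 1.58 Mb, 25 of 31 probes were well above background on no MDA-MB-231 array. Some of these 25, such as the probes of IFNW1, IFNA14 and IFNA8, were on no array of any other line either. Of 17 probes in the stretch of 11 named genes that were measured in another line, 14 were on no MDA-MB-231 array. Not all of the 14 were measured in every other line. The HACD4 probes were on no HCC1954 or MDA-MB-361 array, and IFNE was measured in HCC1954 alone. Of 14 probes of named genes measured in another line outside the stretch, within the window plotted, 13 were well above background on all 6 arrays and 0 on none. All 14 lie on the FOCAD side. Beyond DMRTA1 the only named gene, ELAVL2, was not measured in another line, so no named gene bounds the stretch there. Probes without a gene name beyond DMRTA1 were well above background on all 6 arrays. DNA copy number was not measured here.

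KLHL9, a ubiquitin ligase adaptor, was at least 165-fold lower and FOCAD, focadhesin (KIAA1797 in the files), at least 151-fold lower, with 4.34 to 6.60 and 4.07 to 5.55 in the other lines. CDKN2B was at least 13.4-fold lower and MTAP at least 7.87-fold. CDKN2A was the exception: its brighter probe lay between 0.87 and 1.98 on all 6 MDA-MB-231 arrays, well above background, against 4.14 to 7.44, while its second probe was on no MDA-MB-231 array and on all 24 others at 1.95 to 5.64. The other probes above background in the stretch were 1 of IFNA4 on 4 arrays, 1 of IFNA10 on 1, 1 of CDKN2A-AS1 on 3 and 2 without a gene name. Those 2 were bright on all 6 arrays, at 5.99 to 6.98 and 5.78 to 6.77, and on all 24 others, and the transcripts they read were not identified here. The interferon alpha genes are near-identical to each other and CDKN2A-AS1 overlaps CDKN2A, so the source of these signals is uncertain. Of 12 CDK inhibitors, cyclins, RB1 and MYC tested, 5 were higher and 0 lower, among them CDKN1C, the inhibitor p57, at 2.18 to 4.67 against at most 1.95.

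**Figure D3:**
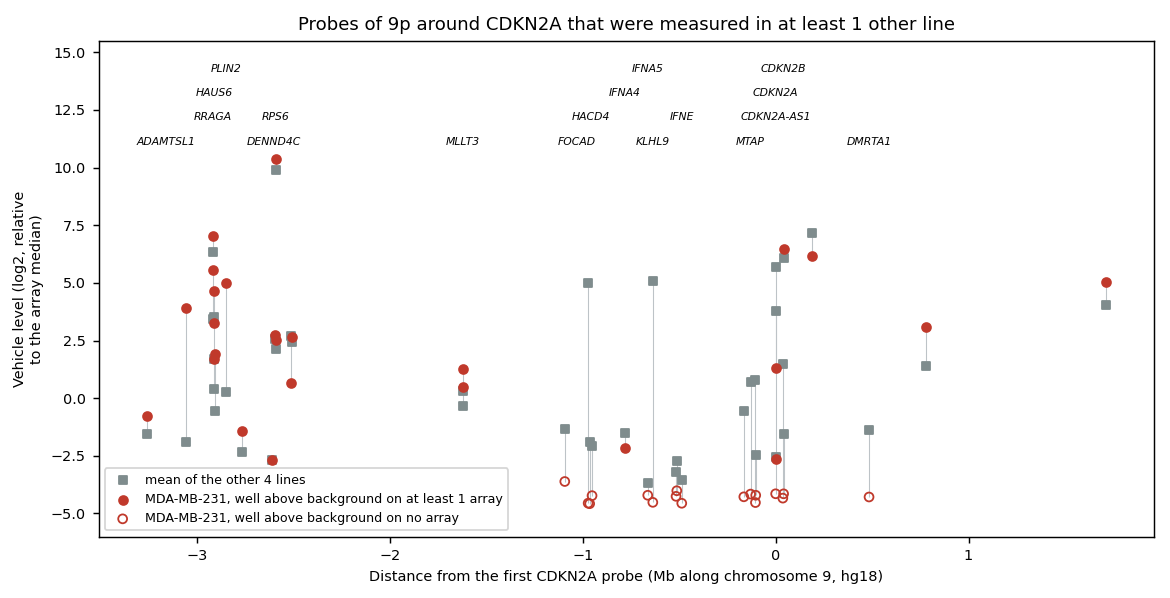
Mean vehicle level (log2, relative to the array median) in MDA-MB-231 (red) and over the other 4 lines (grey squares) of probes of chromosome 9 measured in at least 1 other line, by distance in Mb from the first CDKN2A probe. Filled red points are well above background on at least 1 MDA-MB-231 array, open ones on none. Open points run from FOCAD to DMRTA1, and the filled points among them are 1 probe each of IFNA4, CDKN2A-AS1 and CDKN2A and 2 probes without a gene name.

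The genes farthest above every other line were ranked by the smallest of the 4 differences. ANKRD1 (chr10:92662542-92662601, hg18), an ankyrin repeat cofactor known as a target of YAP, headed them with 7.21 to 8.64 in MDA-MB-231. Only HCC1954 had it above background, on 4 arrays at up to -1.64, and the difference was 11.28 ± 0.21 (SE, adjusted p = 1.2e-27). Where many arrays of the lower lines are below background, as here, a fitted difference includes their background signal and its size is not exact. CCN2, another known YAP target, was also higher than every line in the fit, at 6.32 to 7.04, although 1 HCC1954 array reached 7.83. GSTP1, a glutathione transferase that is often silenced in luminal tumours, lay between 7.14 and 9.29 against at most -0.38, a difference of 10.10 ± 0.21.

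PTX3, a secreted pentraxin of innate immunity, and APBB1IP, an adaptor of integrin activation in blood cells, were well above background on all 6 arrays and on none of the 24 others, and were at least 213-fold and 189-fold higher. IGFBP1, an insulin-like growth factor binding protein, behaved the same way, at least 74.1-fold higher. EVI2A was at least 102-fold higher. FOXA2, the sister gene of FOXA1 and a factor of liver and gut, lay between 5.73 and 7.90 and was measured on 6 of 24 other arrays, never above -1.20. COL8A1, a short-chain collagen, lay between 4.79 and 5.82 against at most -0.62. SPANXB1, SPANXD and SPANXA1, cancer-testis genes, lay at no less than 8.07, 7.17 and 7.16 against at most 0.29, 0.46 and 0.66, but these genes are near-identical and their probes may read the same transcripts.

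The genes farthest below every line gave bounds. IGFBP5, a growth factor binding protein, was at least 462-fold lower, EPN3, an epsin of epithelia, at least 456-fold and TMEM30B, a flippase subunit, at least 438-fold. PRR15L (ATAD4 in the files) and PRR15, proline-rich proteins of unknown role, were at least 376-fold and 236-fold lower. None of these 5 was well above background on any MDA-MB-231 array, and all were on all 24 others. QPRT, an enzyme of NAD synthesis, was measured on 2 of 6 arrays at up to -1.60, against 6.50 to 9.13. KDF1, a factor of keratinocyte differentiation, and IRX2, a homeobox factor, were measured on 1 MDA-MB-231 array each. For IRX2 that array was the one at 6 h, with 0.81, where the median was -4.79.

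**Figure D4:**
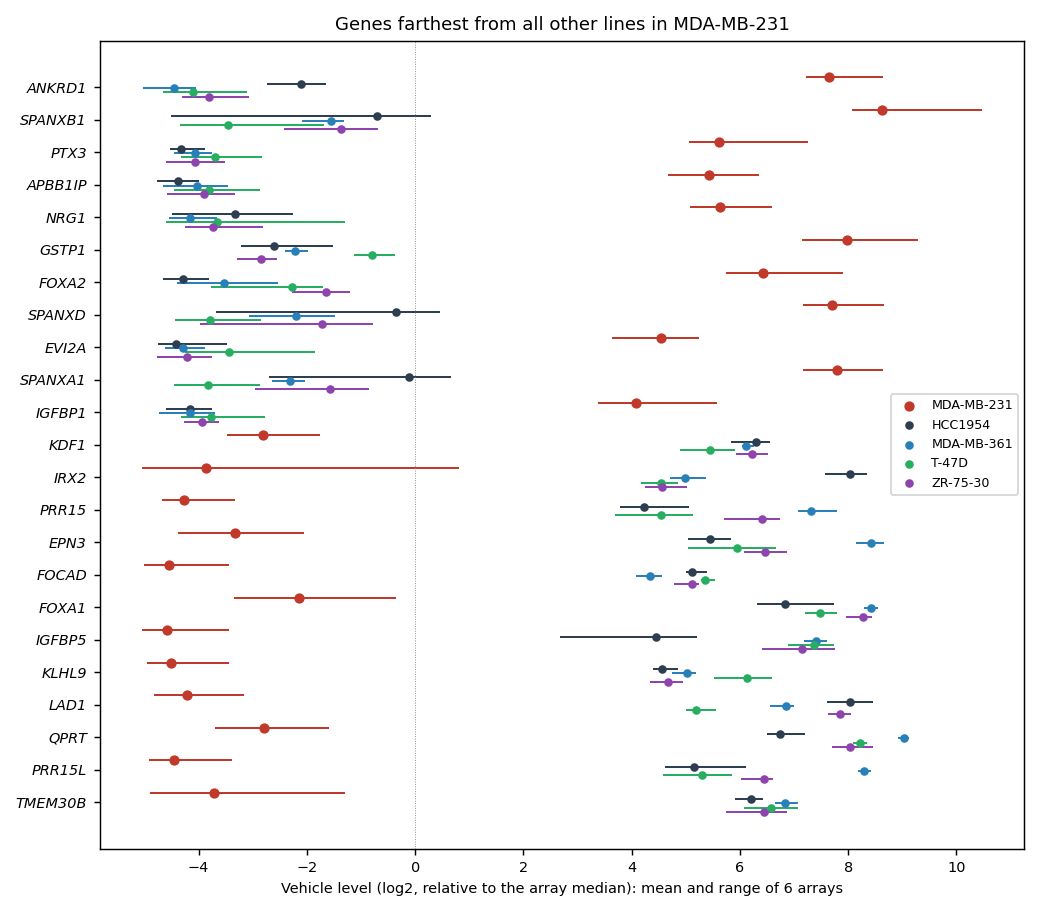
Mean vehicle level (log2, relative to the array median) in each line of the genes called higher (top) or lower (bottom) in MDA-MB-231 than in all 4 other lines with the largest distance to the nearest line, among those reported here. Points are means and bars the range of 6 arrays. Means below background have no order, so distances to or from them are not exact. ANKRD1 lies between 7.21 and 8.64 in MDA-MB-231, and TMEM30B is at least 438-fold lower there than the mean of the others.

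Of 18 BMP ligands and receptors tested, 3 were higher and 6 lower than the mean of the lines. Their median difference was -0.02, and the shares of 16.7% and 33.3% stand against 18.6% and 14.5% of all genes. The ligands differed most. BMP7 (chr20:55178962-55179021, hg18), the ligand given to the treated cells of each array, was itself well above background on no vehicle-treated MDA-MB-231 array. It lay between 1.75 and 9.37 on the 24 others, with the highest levels in ZR-75-30, and was at least 215-fold lower. BMP4 (chr14:53487068-53487127) was the reverse, at 3.84 to 6.21 with a median of 4.52, above T-47D at 2.43 to 3.29 and the other lines at -1.86 to 1.19, a difference of 4.54 ± 0.22 (SE, adjusted p = 1.9e-17). INHBA, the activin A subunit, was higher by 5.22 ± 0.29, and its 5.04 to 6.48 overlapped with HCC1954 at 2.21 to 5.54. INHBB, the activin B subunit, and GDF15, a stress-induced member of the family, were lower than the mean, with differences of -2.17 and -1.53.

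None of the receptors BMPR1A, BMPR2 and ACVR1, through which BMPs signal, was called. BMPR1A differed by -0.36 ± 0.18 (adjusted p = 0.081), BMPR2 by 0.17 ± 0.19 (adjusted p = 0.446) and ACVR1 by 0.56 ± 0.19, less than 2-fold. A p above the threshold does not show that receptor levels are equal. BMPR1B, the further type I receptor for BMPs, was well above background on no array of MDA-MB-231, MDA-MB-361 or T-47D and on all arrays of HCC1954 and ZR-75-30. It was called lower than the mean of the lines, a call lost after normexp background correction.

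Antagonists and targets of BMP signalling were called in both directions. Of 21 SMADs, ID genes and antagonists tested, 8 were higher and 8 lower. Each share was 38.1%, against 18.6% higher and 14.5% lower of all genes, and a division by role was not tested. Secreted antagonists higher than every line were NOG, noggin, at 1.49 to 2.81 against at most 0.08, BMPER at 1.66 to 2.08 against at most -1.39, and SOST, sclerostin, at -0.90 to -0.33 against at most -2.05. FST, follistatin, which binds activins, was higher than the mean by 5.72 ± 0.27 but overlapped HCC1954, at 4.98 to 6.50 against 3.77 to 5.89.

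The 4 ID genes, early targets of BMP signalling, were lower than the mean of the lines. ID1 lay between 5.17 and 7.53 with a median of 5.73 against 7.29 to 9.20, and the groups overlapped only by the highest array of MDA-MB-231 and the lowest of HCC1954 (difference -2.51 ± 0.24). ID2 lay between -1.11 and 0.64 against 2.01 to 6.53, and ID4 was well above background on no MDA-MB-231 array and on all others, at least 82.1-fold lower. ID3 was lower than the mean, with a difference of -1.93, but was not called against HCC1954, with medians of 2.48 and 2.53. SMAD6, the inhibitory SMAD, lay between -2.86 and -1.25 against -0.35 to 1.27, and BAMBI, a pseudoreceptor, between 5.12 and 7.14 against 7.06 to 10.54. Of 15 genes of the TGF-beta pathway, 7 were higher and 3 lower, with TGFBR2, the type II receptor, at 5.67 to 6.92 near HCC1954 and TGFB3 with a difference of -4.45 ± 0.13 and levels of -1.33 to -0.75 that overlapped those of HCC1954.

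**Figure D5:**
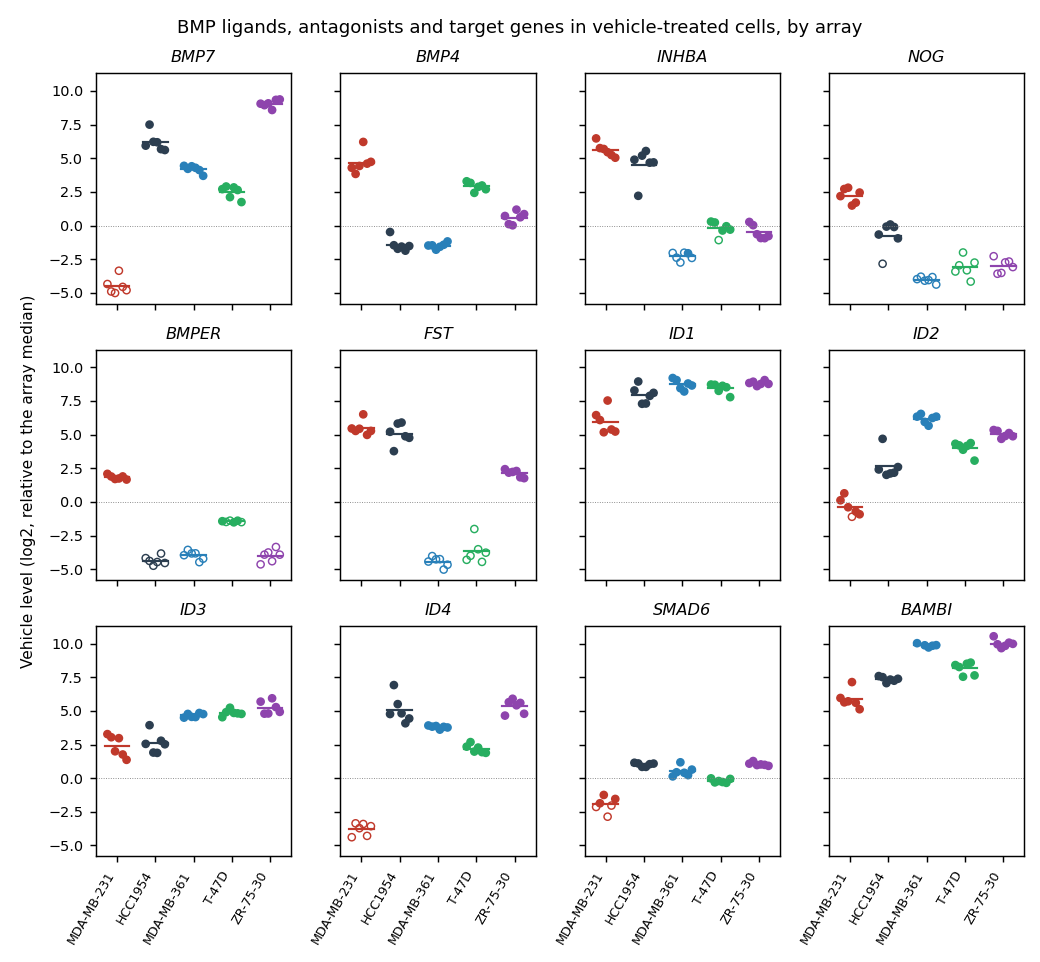
Vehicle level (log2, relative to the array median) of BMP ligands, antagonists and targets on each of the 30 arrays, in order of time within a line, with line means as bars. Filled points are well above background and open points are not. BMP7 and ID4 are open on all 6 MDA-MB-231 arrays, and BMP4, NOG and BMPER are highest there.

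Genes of signalling output followed HCC1954 in part, and matrix proteases and inhibitors less so. Of 17 genes known as output of ERK signalling, 11 were higher than the mean and 1 lower, with 13 higher than MDA-MB-361, 16 than T-47D and 10 than ZR-75-30, but 2 than HCC1954. With cell line as a random block 2 of the 17 were called higher and 0 lower. FOSL1, a factor of the AP-1 family, lay between 4.18 and 5.76 and overlapped HCC1954 at 3.05 to 4.43, and PHLDA1 was above every line at 8.01 to 9.79 against at most 7.82. Of 22 matrix proteases and inhibitors, 13 were higher and 4 lower, or 8 and 2 when cell line was a random block. Without that block the shares were 59.1% and 18.2%, against 18.6% and 14.5% of all genes. Against HCC1954 11 were higher and 9 lower, against MDA-MB-361 11 and 5, against T-47D 13 and 5 and against ZR-75-30 12 and 4. PLAT, tissue plasminogen activator, was higher than every line, at 6.79 to 7.34 against at most 6.32. PLAU, urokinase, was shared with HCC1954, and MMP9, a gelatinase, was lower than every line, at -0.36 to 0.73 against 1.73 to 3.47.

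Collagens, laminins and integrins were more often higher than lower in MDA-MB-231. The shares were 45.5% and 9.09% for collagens, 63.6% and 9.09% for laminins and 34.8% and 17.4% for integrins. Of all genes tested, 18.6% were higher and 14.5% lower. Of 33 collagens tested, 15 were higher than the mean and 10 of these than every line, among them COL13A1 (5.96 to 8.12 against at most 4.96), COL4A2 of basement membranes (6.47 to 7.04 against at most 3.59) and COL6A1 (7.01 to 8.60 against at most 5.21). COL1A1 and COL11A2 were lower than every line. Of 11 laminins 7 were higher and LAMA5 lower, and of 23 integrins 8 were higher and 4 lower. ITGB3, the beta subunit of the vitronectin receptor, lay between -0.78 and 0.55 and was measured on 1 of 24 other arrays, and ITGB4, of hemidesmosomes, lay between 1.30 and 2.60 against 3.86 to 5.84. ITGB1, the common beta subunit, was higher than the mean by 1.27 ± 0.18, but by 0.98 without the 6 h array, which ended its call against the mean. Of 13 claudins, 5 were lower and 2 higher, or 38.5% and 15.4% against 14.5% and 18.6% of all genes. Besides CLDN3 and CLDN7 none was lower than every line.

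Of 26 WNT ligands, antagonists and frizzled receptors tested, 9 were higher and 6 lower than the mean, 7 and 1 of them than every line. The shares against the mean were 34.6% and 23.1%, where all genes had 18.6% and 14.5%, and the median difference was 0.23. The pair of noncanonical ligands WNT5A and WNT5B stood opposite to each other. WNT5B was well above background on all 6 arrays at 1.79 to 2.83 and on none of the 24 others, at least 20.9-fold higher, whereas WNT5A was on no MDA-MB-231 array and on 22 others, at least 5.06-fold lower. DKK1, a secreted WNT inhibitor, lay between 8.01 and 10.53 against at most 7.55, and FZD7, a receptor, between 4.41 and 6.19 against at most 3.62.

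Of 24 inflammatory genes and targets of NF-kappaB, 14 were higher than the mean and 4 lower, or 58.3% and 16.7% against 18.6% and 14.5% of all genes. Against HCC1954 the list was balanced, with 8 higher and 9 lower. With cell line as a random block 3 of the 24 were called higher. IL6 and IL11, cytokines of the gp130 family, were above every line, at 3.19 to 4.88 against at most 1.38 and at 3.93 to 6.20 against at most 2.27. CXCL8 and CCL2, chemokines for neutrophils and monocytes, were higher in HCC1954, and both were lower in MDA-MB-231 than the mean of the lines. For CXCL8 that direction rests on HCC1954: without that line the difference was 0.07 in place of -1.88. CCL2 was well above background on no array of MDA-MB-231, MDA-MB-361 or ZR-75-30, so it was not low in MDA-MB-231 alone.

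Genes of proliferation were in part higher, 9 of 20 with 0 lower and a median difference of 0.87. The share higher was 45.0% against 18.6% of all genes, and 14.5% of all genes were lower. MKI67, the proliferation marker, lay between 2.93 and 4.42 against 0.27 to 2.72, and TYMS, thymidylate synthase, between 8.62 and 11.05 against 5.91 to 8.04. With cell line as a random block 0 of the 20 were called.

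Markers of cells other than breast epithelium were checked for the line's identity. PTPRC, the common leukocyte antigen, was well above background on none of the 30 arrays. CD3E and CD14 were not called against the mean of the other lines (differences -0.09 and 0.45, adjusted p = 0.775 and 0.167). Of 6 leukocyte markers tested, 1 was higher, a share of 16.7% against 18.6% of all genes. It was CD68, a lysosomal protein of macrophages, at 3.28 to 3.91 against at most 1.82. Of 7 endothelial markers tested, ESAM and ROBO4 were higher than every line and VWF lower, while CDH5 was well above background on no MDA-MB-231 array and PECAM1 on 3.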

How the data were processed

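The vehicle (Cy3) channel of 30 two-colour Agilent arrays was read, for 5 cell lines and 6 times of treatment. Per the file headers, the deposited intensities were background corrected and dye normalized (linear and lowess, against the BMP7 channel) by Feature Extraction 9.5.1.1, with probe positions on hg18. Log2 of the processed vehicle signal was taken, after removal of controls and of spots marked as outliers, replicate spots were averaged per probe, and the median of every array was set to 0. A gene was read from its brightest probe, and 17843 of 30482 names had a symbol in the RefSeq gene table. Genes well above background on at least 0.5 of the arrays of 1 line were fitted with limma 3.58.1 in R 4.3.3, with line as the factor and all 30 arrays. Called genes had a Benjamini-Hochberg adjusted p under 0.05 over all genes, a difference of 2-fold or more, and were well above background on at least 0.5 of the arrays of the higher group. Where a gene was well above background on no array of the lower group, the fold is a bound, taken against the lowest signal well above background on each array, and open to dye bias since dyes were not swapped. Where a gene had other probes, 141 of 2024 called genes had a measured probe of opposite sign. Precision is limited by how many arrays there are and by how far signals stand above background.

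Named genes are marker genes of breast lines, up to 4 per list and direction with the largest called difference, and the 12 farthest from every line in each direction; other members are named where a count turns on them, after their values were seen. Some genes that this rule names are not reported here. The members and lists were chosen with earlier results of these data known. The deposited log ratios, their p-values, the BMP7 channel (apart from 1 alternative) and the series matrix were not used. Alternatives were other scalings (75th percentile, quantile, detected probes), normexp with an offset of 50, other probe and background rules, time, scan batch, slide or cell line as blocks, line means, each scan batch alone, and leaving out arrays or lines. The fit was tested on simulated data. Python 3.11.15 with numpy 2.4.6, pandas 2.3.3, scipy 1.17.1 and matplotlib 3.10.9 served for the rest.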

Additional observations from a re-analysis of the deposited data

Results flagged for a closer look

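Of 48 named genes checked in MDA-MB-231, 13 had 1 array far from the other 5, where chance gives about 1 in 20, and in all 13 it was the array at 6 h. That array also had 2235 outlier-marked spots, far from the other MDA-MB-231 arrays.

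Among genes high in MDA-MB-231, the 6 h array gave the highest level, with 10.06 for AXL, 10.58 for CD44, 7.90 for FOXA2, 7.26 for PTX3 and 10.48 for SPANXB1. CD24, low in the line, had 5.14 at 6 h. IRX2 had 0.81 at 6 h and was not well above background at any other time. For ESR1 (-3.26), FOCAD (-3.44), IGFBP5 (-3.43), KLHL9 (-3.44), PRR15 (-3.33) and PRR15L (-3.38) the 6 h level was the highest of the 6, but these genes were well above background on no MDA-MB-231 array, and the lowest signal that counts as such was -1.09 on that array. Without the 6 h array 193 of 194 named genes called against the mean of the other lines kept that call, the exception being ITGB1. Of 126 named genes called against every line 119 kept that call, and CAV1, CIITA, HOXD1, IL24, ITGB7, S100A3 and TYMS lost it, with differences from the nearest line of -0.80 for ITGB7 and 0.86 to 0.96 for the others.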

How the results depend on the processing

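Leaving out 1 MDA-MB-231 array in turn gave 3695 to 4311 genes higher and 3256 to 3320 lower than the mean of the other lines, and 1275 to 1481 higher and 1200 to 1240 lower than every line. Against single lines it gave 3242 to 3681 higher and 3594 to 3721 lower than HCC1954, 5551 to 6111 and 4406 to 4548 for MDA-MB-361, 4610 to 5102 and 4041 to 4225 for T-47D, and 4196 to 4706 and 3915 to 4043 for ZR-75-30, with the fewest higher calls always without the 6 h array. Normexp gave 2286 higher and 2171 lower than the mean, 704 and 707 against every line, 1811 higher than HCC1954, 3541 higher than MDA-MB-361, 1907 lower than T-47D and 2420 higher than ZR-75-30. With all arrays of the higher group required to be well above background, 2132 were lower than the mean. The smaller scan batch alone, added after seeing the data and without MDA-MB-361, gave 1786 higher and 1597 lower than the mean, 340 and 343 against every line, 735 and 761 against HCC1954, 1426 and 1463 against T-47D, and 1635 and 1667 against ZR-75-30. Without HCC1954, 2246 were higher than every line. Cell line as a random block gave 862 higher and 1047 lower than the mean, and a fit on the 5 line means 126 and 87, all of them among the calls reported. The cause of these shifts was not tested.

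Of 4896 values of named genes under the alternatives, 4517 kept direction and call, 374 kept direction without the call, 4 gained a call and 1 reversed, CXCL8 without HCC1954 at 0.0737. Of 194 called named genes, 120 were called with cell line as a random block, 36 on line means, 170 after normexp and 192 in the BMP7 channel. With that block 33 epithelial genes were lower, 21 mesenchymal genes higher and 14 luminal genes lower, but 2 ERK output genes, 3 inflammatory genes and 1 MHC gene higher. The medians of the BMP ligand, TGF-beta, WNT, leukocyte and endothelial lists changed sign under some alternatives, those of the other lists under none. The median difference of all genes moved from 0.11 to -0.03 with arrays set on the probes well above background on all arrays. Arrays of different lines at the same time share that time and no culture, and with time as a block 4159 genes were higher and 3262 lower than the mean.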

Other observations

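HOX genes, which keep the body position a tissue came from, were more often lower than higher in MDA-MB-231. Of 25 tested, 12 were lower than the mean of the other lines, 3 higher and 10 not called, with a median difference of -1.71. The share lower was 48.0% against 14.5% of all genes, and the share higher was 12.0% against 18.6%. HOXC13, HOXB2 and HOXC10 were well above background on no MDA-MB-231 array and on all 24 others, at least 78.6-fold, 92.2-fold and 20.6-fold lower. HOXC9 lay between -1.34 and -0.45 against 3.38 to 5.62. HOXD3 was well above background on all 6 arrays and on none of the others, at least 9.86-fold higher, and HOXB9 lay between 4.63 and 7.16 against at most 3.37.

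Interferon-stimulated genes were higher in part, 11 of 20 with 1 lower and 7 higher than every line, and 7 were called higher with cell line as a random block. The shares against the mean were 55.0% and 5.0%, where all genes had 18.6% and 14.5%. IFI44 lay between 4.48 and 5.32 against at most 0.84, IFIT3 between 2.97 and 5.05 against at most 1.25, and IFIT2 between 6.28 and 7.41 against at most 4.09. Of 16 MHC genes 11 were higher, a share of 68.75%, and 0 lower, and 1 was called higher with cell line as a random block. CIITA, the activator of MHC class II genes, lay between 0.45 and 2.97 and overlapped HCC1954, which reached 2.27. CD74, the class II invariant chain, was measured on 5 of 6 arrays and on none of the 24 others, at least 2.48-fold higher. HLA genes are similar in sequence, and their probes may read more than 1 of them.

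Metallothioneins, which bind zinc and copper, were higher in 9 of 11 genes tested, with 9 higher than MDA-MB-361 and T-47D, 5 than ZR-75-30 and 1 than HCC1954. The share higher than the mean was 81.8% against 18.6% of all genes. With cell line as a random block 1 was called higher. Apart from MT1M, at 6.08 to 6.84 against at most 3.98, they are near-identical and their probes cannot be told apart with certainty.

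Sterol and fatty acid synthesis genes were lower than the mean in 6 of 22 tested, higher in 1 and not called in 15, and against MDA-MB-361 5 were higher and 5 lower. The shares against the mean were 27.3% lower and 4.55% higher, where all genes had 14.5% and 18.6%. SQLE, squalene epoxidase, lay between 4.33 and 4.87 against 5.15 to 8.27. SCD and HMGCS1 were lower than every line, with differences of -2.12 and -2.11, and both overlapped the other lines in range. Of 16 S100 genes 5 were lower and 2 higher, or 31.25% and 12.5% against 14.5% and 18.6% of all genes. S100A14 was well above background on no MDA-MB-231 array and at 7.49 to 8.20 in 3 lines, at least 236-fold lower than the mean, and S100P lay between -1.47 and 0.58 against 2.44 to 10.08.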
